A study of Mus musculus with 2 samples.

Results

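The 9 genes Ltbp3, Frmd8, Ehbp1l1, Slc25a45, Map3k11, Dpf2, Sipa1, Kat5 and Capn1 lie beside Malat1 on mouse chromosome 19 and were read for local effects of a Malat1 knockout allele. They were chosen by name as protein-coding neighbours, with earlier results of these data known. Each has 1 row among the 16385 genes of the authors' deposited table. The samples are 2 libraries of Malat1 knockout Th17 cells on the C57BL/6 strain, which the submitters call independent biological replicates. Naive CD4+ T cells spent 72 h on plates coated with hamster IgG in 0.1 ng/mL TGF-β and 20 ng/mL IL-6, with 0.25 µg/mL of antibody to CD3ε and 1 µg/mL of antibody to CD28. Ribosome-depleted RNA of these bulk cultures was sequenced, so fewer cells of a kind and less RNA per cell cannot be told apart. The wild-type Th17 libraries of the authors' comparison belong to another series, so genotype and series cannot be told apart. Not given in the sources used here are the extent of the allele, the cells that carry it and the age of the animals. The characteristics label of replicate 2 names Malat2, and its title, which names Malat1, was followed. Malat1 itself is not analysed here.

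The Malat1 transcript is a long non-coding RNA held in the nucleus at speckles, the domains that store splicing factors. It sits in a stretch of chromosome 19 dense with broadly expressed genes, and genes beside a targeted locus are commonly inspected because an allele can act on its surroundings as well as through its product. The 9 neighbours have unrelated functions. They include regulators of surface shedding and of TGF-β storage, a kinase and a small GTPase regulator, a membrane traffic factor and a mitochondrial carrier, subunits of 2 chromatin complexes, and a protease.

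The genes fall on both sides of Malat1 in GENCODE M21 (build GRCm38, the build mm10 of the submitters' processing notes). Malat1 is on the minus strand. Toward lower coordinates, beyond its 3′ end, the nearest edge of Ltbp3 is 37.2 kb away, that of Ehbp1l1 69.4 kb, Map3k11 92.8 kb, Sipa1 132 kb and Kat5 185 kb. Toward higher coordinates Frmd8 is 47.0 kb away, Slc25a45 75.1 kb, Dpf2 93.8 kb and Capn1 186 kb. From Kat5 (start 5603014) to Capn1 (end 6015897) the stretch held 19 measured genes, these 9 among them.

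The promoters of the 9 genes differ in CpG content, and the 3 shown are those of the genes nearest to Malat1 on each side, Ltbp3 and Frmd8, and of Ehbp1l1, the next of the 9 toward lower coordinates. They are RefSeq sequences (GRCm38.p6), 5′ to 3′ on the gene's strand, with CpG dinucleotides in capitals. The Ltbp3 sequence is chr19:5740650-5740899 (plus strand), the Frmd8 sequence chr19:5875275-5875458 (minus strand, ended at the GENCODE start) and the Ehbp1l1 sequence chr19:5726318-5726567 (minus strand).
Ltbp3: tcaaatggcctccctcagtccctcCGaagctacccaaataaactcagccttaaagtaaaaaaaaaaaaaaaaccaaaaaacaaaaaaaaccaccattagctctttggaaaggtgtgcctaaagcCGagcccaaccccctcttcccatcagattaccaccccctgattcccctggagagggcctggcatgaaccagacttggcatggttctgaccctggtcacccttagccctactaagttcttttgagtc
Frmd8: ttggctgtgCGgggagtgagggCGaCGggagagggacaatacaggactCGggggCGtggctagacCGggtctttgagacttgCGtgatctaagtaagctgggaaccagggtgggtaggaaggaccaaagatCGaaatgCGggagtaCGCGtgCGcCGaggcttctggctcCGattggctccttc
Ehbp1l1: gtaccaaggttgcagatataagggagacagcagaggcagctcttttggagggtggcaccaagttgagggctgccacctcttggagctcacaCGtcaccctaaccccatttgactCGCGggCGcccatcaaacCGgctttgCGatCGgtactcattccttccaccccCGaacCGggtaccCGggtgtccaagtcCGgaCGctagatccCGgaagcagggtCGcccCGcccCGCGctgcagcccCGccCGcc

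All 9 genes matched a RefSeq promoter. In the 250 bases before the RefSeq start, Ltbp3 had 2 CpG dinucleotides, the fewest of the 9, and Frmd8 had 22, the most. Of 32851 promoter windows of that length, 29.0% held no more than 2 and 14.8% held at least 22, with a median of 6. The CCAAT box (CCAAT, both strands) was found in 5 of the 9 windows against 33.8% of all windows, and the GC box (GGGCGG, both strands) in 4 against 32.7%. The TATA box (TATAAA, both strands) was found in 0 of the 9 against 12.4% of all windows. These matches describe letters in the windows only.

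The knockout libraries held 21554852 and 26916169 counts. Genes that mark Th17 cells were abundant, with summed normalized counts of 108942 and 106743 for 6 markers (Il17a, Il17f, Rora, Il22, Il23r and Ccr6). The 4 B cell markers summed to 7.74 and 7.59. The 2 CD8 T cell markers summed to 280 and 288, mostly Cd8b1, and the 5 myeloid markers to 146 and 93.4, mostly Cd68. Normalized counts are counts divided by the authors' size factor for each library. The wild-type level is given as the implied wild-type mean, computed by taking both knockout values out of the authors' mean over 4 libraries, and it carries no error of its own. Markers of kidney tubule (7 of 7 measured) summed to 19.3 and 28.8 in the knockout libraries against an implied wild-type sum of 31609, and Lrp2, Miox and Umod were at 0 counts in both knockout libraries. Markers of mesenchyme and smooth muscle (7 of 7) summed to 55.1 and 48.6 against 15271, with Col1a2 at 0 in both. In the authors' deposited table, of the 7 kidney markers 0 and of the 7 mesenchymal ones 1 (Actg2, adjusted p 0.00223, DESeq2) passed an adjusted p of 0.05, and standard errors of their log2 fold changes reached 4.69. These lists were chosen with earlier results known.

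None of the 9 neighbours passed the authors' test. By the authors' deposited table, 0 of 9 had an adjusted p under 0.05 (DESeq2 Wald test, Benjamini-Hochberg over all genes), where 0.159% of 14481 genes with an adjusted p did, and the adjusted p was 1.00 for each of the 9. At an unadjusted p under 0.05 the count was also 0 of 9, against 2.11% of all 16385 genes (the authors' DESeq2). A log2 fold change above 0 means a higher level in knockout than in wild type, and 8 of the 9 lay above 0 in the authors' deposited table, but only 4 did once the trend with GC content was subtracted. Their median was 0.026 in the authors' deposited table, against -0.0032 for 10978 genes whose mean was at least 50. With 9 genes chosen for position, these counts are a description, and a p that misses the threshold does not show that a gene was unchanged.

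**Figure D1:**
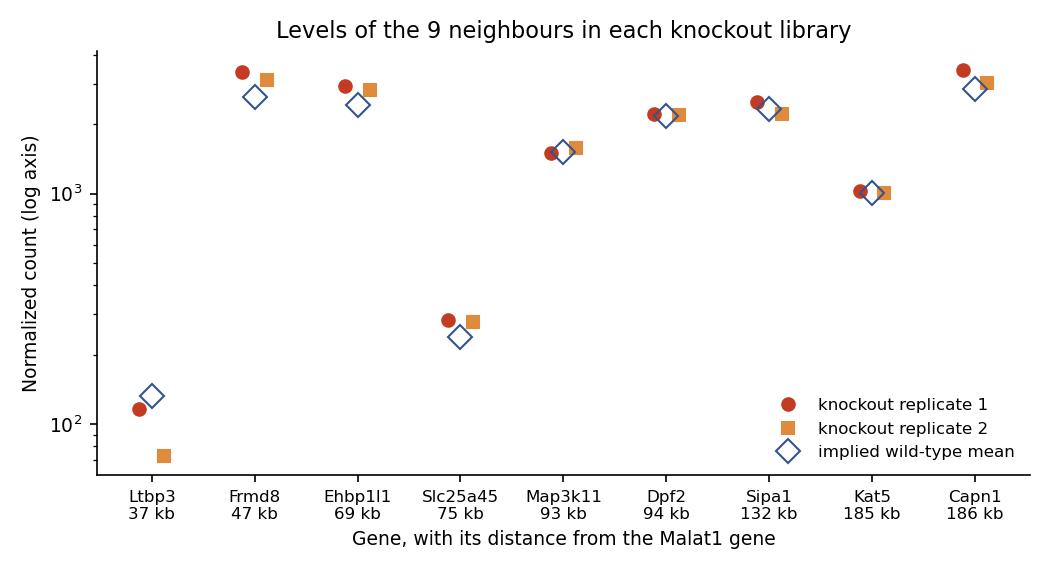
Normalized counts (log axis) of the 9 genes in knockout replicate 1 (circles) and replicate 2 (squares), with the implied wild-type mean (open diamonds), ordered by distance from Malat1. Both knockout libraries lie above the diamond for 5 genes, Frmd8, Ehbp1l1, Slc25a45, Dpf2 and Capn1, and below it for Ltbp3. The share of all genes with both libraries on 1 side is not given here, so this only describes the 9.

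Frmd8 encodes a FERM domain protein that binds the iRhoms and keeps their complex with ADAM17, the sheddase of TNF, at the cell surface. The knockout libraries had normalized counts of 3363 and 3122, a mean of 3242 ± 170 (SD, n = 2), and the implied wild-type mean was 2624. Both knockout values lay above that mean. The authors' deposited table gives a log2 fold change of 0.31 (SE 0.16, 95% interval -0.0092 to 0.62, unadjusted p 0.0570, DESeq2 Wald test). That was the smallest p of the 9, and among genes with a mean of at least 50, 2.86% had a smaller one. Without the GC trend the log2 fold change of Frmd8 was 0.25, with an unadjusted p of 0.116 from the authors' DESeq2 standard error. Frmd8os, annotated on the opposite strand, shares 1687 bases with Frmd8, and whether counting used strand is not given in the sources used here.

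Ltbp3 encodes a latent TGF-β binding protein, which ties latent TGF-β to the extracellular matrix, and was the least abundant of the 9. Its knockout libraries held 120 and 96 counts, normalized counts of 116 and 72.9 (mean 94.5 ± 30.6, SD, n = 2), and the implied wild-type mean was 133. Both libraries lay below that mean. The log2 ratio of replicate 2 to replicate 1 was -0.67, a larger difference than in 99.0% of the 10540 genes whose knockout mean was at least 50. The log2 fold change of Ltbp3 in the authors' deposited table was -0.36 with an SE of 0.89 (unadjusted p 0.686, DESeq2 Wald test), and its 95% interval ran from a fold of 0.232 to 2.62. Neither a halving nor a doubling could be told from no change, since both lie inside that interval. Kidney and mesenchymal markers stood far lower in the knockout libraries than in the implied wild-type mean, as given above, and their part in the value of Ltbp3 was not tested.

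Map3k11 encodes MLK3, a kinase that activates the JNK and p38 pathways. Its normalized counts were 1505 and 1583 (mean 1544 ± 55.2, SD, n = 2), on either side of the implied wild-type mean of 1516. The authors' deposited table puts its log2 fold change at 0.026 (SE 0.20, unadjusted p 0.897, DESeq2 Wald test). Sipa1 encodes a GTPase-activating protein that switches off RAP1, a small GTPase used in integrin adhesion of T cells. It stood at 2491 and 2224 (mean 2357 ± 189, SD, n = 2), again on either side of the implied wild-type mean of 2329. The authors' deposited table puts Sipa1 at 0.016 (SE 0.17, unadjusted p 0.925, DESeq2 Wald test). The 95% intervals of fold ran from 0.777 to 1.33 for Map3k11 and from 0.805 to 1.27 for Sipa1, so changes of 1.5-fold either way lie outside both.

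Ehbp1l1 encodes a protein that links the small GTPase RAB8 to tubular recycling membranes. Its normalized counts of 2921 and 2820 (mean 2870 ± 70.8, SD, n = 2) both lay above the implied wild-type mean of 2428. In the authors' deposited table its log2 fold change was 0.24 (SE 0.15, unadjusted p 0.111, DESeq2 Wald test), with a 95% interval of -0.055 to 0.54. Slc25a45 encodes a member of the SLC25 family, the carriers of the mitochondrial inner membrane. It had 292 and 364 counts, normalized counts of 282 and 276 (mean 279 ± 4.38, SD, n = 2), both above the implied wild-type mean of 238. The authors' deposited table gives Slc25a45 a log2 fold change of 0.24 too, but at this lower level with an SE of 0.47 (unadjusted p 0.608, DESeq2 Wald test).

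The neighbours that encode chromatin proteins had fold changes close to 0. Kat5 encodes TIP60, the acetyltransferase of the NuA4/TIP60 complex, which acetylates histones and the DNA damage kinase ATM. Its normalized counts were 1025 and 1006 (mean 1016 ± 13.4, SD, n = 2) and the implied wild-type mean was 1009, between them. The authors' deposited table gives Kat5 a log2 fold change of 0.011 (SE 0.24, unadjusted p 0.962, DESeq2 Wald test). Dpf2 encodes BAF45D, a PHD finger subunit of the BAF (SWI/SNF) chromatin remodelling complex. It stood at 2223 and 2187 (mean 2205 ± 25.7, SD, n = 2) against an implied wild-type mean of 2177, with a log2 fold change of 0.018 (SE 0.16, unadjusted p 0.912) in the authors' deposited table (DESeq2). The 95% interval of fold was 0.731 to 1.39 for Kat5 and 0.810 to 1.27 for Dpf2. Kat5 shares 4006 bases with Rnaseh2c on the opposite strand, which stood at 489 and 423, so reads of the pair could be confused in counting without strand.

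Capn1 encodes the large subunit of calpain-1, a calcium-activated cysteine protease that cleaves cytoskeletal and adhesion proteins. Its normalized counts were 3434 and 3031 (mean 3233 ± 285, SD, n = 2), both above the implied wild-type mean of 2836. The log2 ratio to that mean was 0.28 for replicate 1 and 0.096 for replicate 2. The authors' deposited table gives a log2 fold change of 0.19 (SE 0.14, 95% interval -0.093 to 0.47, unadjusted p 0.189, DESeq2 Wald test). Capn1 also shares 3278 bases with the antisense gene Gm10814.

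Per kilobase of annotated exon, the mean normalized count in knockout cells was highest for Capn1 (967), followed by Frmd8 (638), Sipa1 (533), Ehbp1l1 (412), Map3k11 (352), Dpf2 (339), Kat5 (290), Slc25a45 (101) and Ltbp3 (10.4). The values of the libraries did not overlap between any neighbouring pair in that order, although Map3k11 and Dpf2 lay close, at 343 and 360 per kilobase against 342 and 336. Apart from Ltbp3 and Slc25a45, each of the 9 was more abundant in total than at least 70.9% of genes. Replicate 1 was the higher library for 8 of the 9, Map3k11 being the exception, but the same share over all genes is not given here. The median absolute log2 ratio between libraries was 0.073 for the 9, against 0.10 over 10540 genes.

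For the 7 neighbours with a mean of 500 or more, every 95% interval of fold lay between 0.731 and 1.54. The authors' SEs are wide for these data, since the Wald statistic had an SD of 0.76 over genes with a mean of 50 or more. Among those 10978 genes, 86.6% had a smaller absolute log2 fold change than Frmd8 and 6.51% a smaller one than Kat5. Among the 7070 genes whose mean was at least 500, 94.8% had a smaller absolute log2 fold change than Frmd8.

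**Figure D2:**
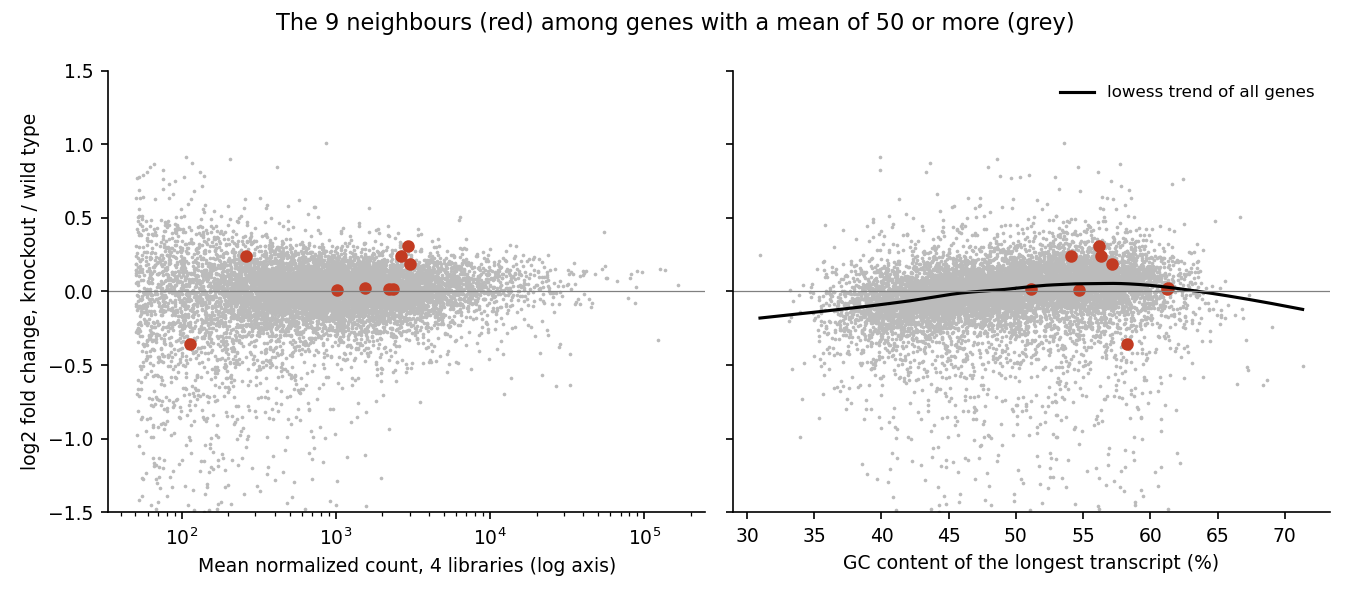
Log2 fold change of the authors' DESeq2 against mean normalized count (left, log axis) and against GC content of the longest transcript (right), for genes with a mean of 50 or more (grey) and the 9 neighbours (red), with the lowess trend in black; 394 genes lie outside the plotted range of 1.5 either way. The neighbours lie inside the spread of other genes, 8 of them above 0, in the GC range where the trend is above 0.

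The 9 genes are GC-rich, as is the stretch around them. Their median GC content was 56.4%, against 49.5% for genes with a mean of 50 or more, and the GC content of each was between 51.1% and 61.3%. Over all genes of that abundance the median log2 fold change was -0.11 below 40% GC and 0.049 between 55% and 60%, from the authors' deposited table. The trend at the GC content of the 9 ran from 0.029 to 0.055. With the trend subtracted from the authors' deposited table, Frmd8 (0.25), Slc25a45 (0.19), Ehbp1l1 (0.19) and Capn1 (0.13) remained above 0, while Map3k11 (-0.0027), Sipa1 (-0.014), Dpf2 (-0.014), Kat5 (-0.041) and Ltbp3 (-0.41) lay below it. The median of the 9 was then -0.0027.

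The wider neighbourhood showed no called gene either. Within 500 kb of the stretch from Kat5 to Capn1 the authors' deposited table holds 68 genes, all protein-coding, of which 0 had an adjusted p and 0 an unadjusted p under 0.05 (the authors' DESeq2). Over all genes the shares were 0.159% of 14481 with an adjusted p and 2.11% of 16385. At such shares a count of 0 among 68 genes says little about the stretch. The 51 of them with a mean of 50 or more had a median log2 fold change of 0.026 in the authors' deposited table, with 32 above 0 (62.7%), against 49.1% of all genes of that abundance. Leaving out the 9, 24 of 42 were above 0 with a median of 0.025. With the GC trend subtracted, the median of the 51 was -0.014. Of 35 names of a neighbourhood list fixed by hand, 31 were measured, with 0 called, 0 at an unadjusted p under 0.05 (DESeq2) and a median of 0.02 in the authors' deposited table.

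**Figure D3:**
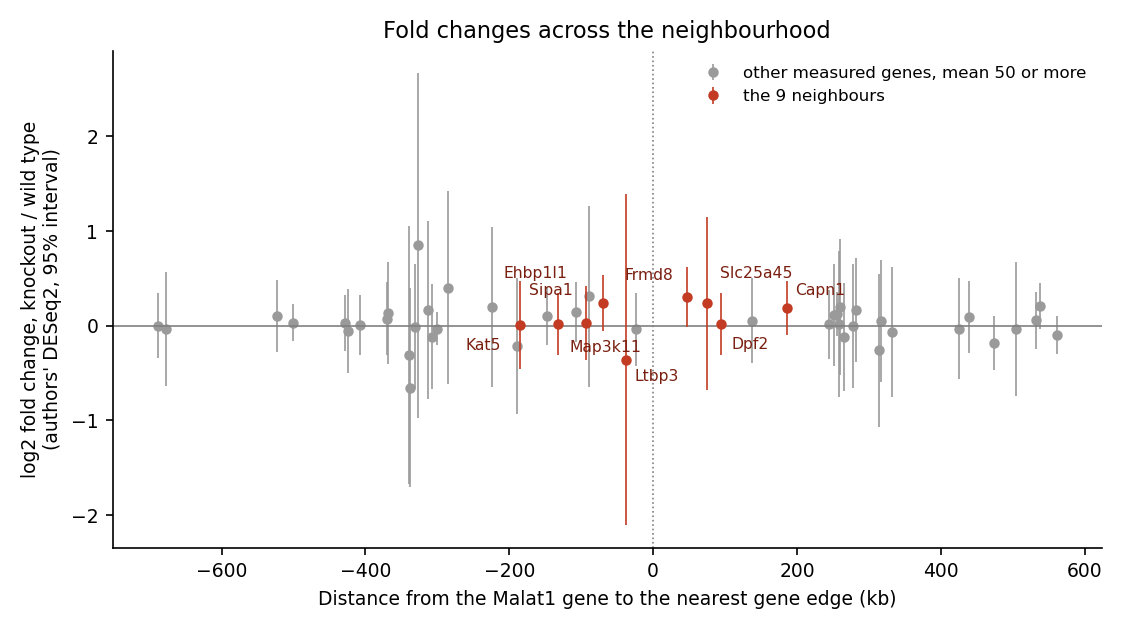
Log2 fold change (authors' DESeq2, bars the 95% interval) against the distance of each gene's nearest edge from Malat1 in kb, negative toward lower coordinates, for the 51 genes within 500 kb of the stretch and with a mean of 50 or more; the 9 neighbours are red. The intervals of all 9 include 0, and that of Ltbp3 is by far the widest of the 9.

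Other named genes close to Malat1 gave values near 0. Pola2, which encodes a subunit of DNA polymerase alpha-primase, stood at 1424 and 1560 and Rela, which encodes the NF-κB subunit p65, at 2810 and 2861. Their log2 fold changes in the authors' deposited table were 0.055 (SE 0.23) and 0.10 (SE 0.16). Tigd3 and Cdc42ep2, between Slc25a45 and Capn1, had 29 to 55 counts in a library, and the authors' deposited table puts them at -0.031 and -0.047 on the log2 scale, with SEs above 1 at that depth.

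Grouped by distance from Malat1, in steps chosen after the values were seen, the median log2 fold change of genes with a mean of 50 or more was 0.13 within 100 kb (8 genes), 0.055 from 100 to 250 kb (9 genes), 0.016 from 250 to 500 kb (26 genes) and 0.0053 from 500 to 1000 kb (18 genes), all from the authors' deposited table. Of the 4 steps, 3 hold fewer than 20 genes, 6 of the 8 and 3 of the 9 genes in the first steps are the neighbours themselves, and no test was made. With the GC trend subtracted these medians were 0.093, 0.056, -0.032 and -0.045. On the side of higher coordinates the 4 neighbours had a median of 0.21 in the authors' deposited table, and on the other side the 5 had 0.016.

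The proteins encoded by the 9 work with partners encoded elsewhere, and 0 genes of the 9 partner lists passed the authors' adjusted p. For Frmd8, 9 genes listed with the iRhoms and ADAM17 were measured, with a median log2 fold change of -0.11 in the authors' deposited table. Adam17 itself was at 0.049 (SE 0.18), and the iRhom genes Rhbdf2 and Rhbdf1 were at 0.25 (SE 0.22) and -0.71 (SE 0.70). At an unadjusted p under 0.05, 3 of the 9 were lower in the authors' deposited table. The sheddase Adam10 was at -0.54 (SE 0.20, p 0.00570, DESeq2). The 14-3-3 proteins Ywhae and Ywhaz were at -0.25 (SE 0.12, p 0.0397) and -0.22 (SE 0.11, p 0.0493), both by DESeq2. With the GC trend subtracted, an alternative chosen after seeing the data, 1 of the 3 stayed under that threshold, Adam10 at -0.48 (p 0.0146), while Ywhae was at -0.22 (p 0.0797) and Ywhaz at -0.21 (p 0.0664), each p from the authors' DESeq2 standard error. Adam10, whose part in the FRMD8 complex was not tested, was well expressed in knockout cells, at 2169 and 2413. Across all genes 1.72% were lower at that threshold.

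For Ltbp3, 12 genes of latent TGF-β storage and activation had a median of -0.28 in the authors' deposited table. Against 1.72% of all genes, 2 of the 12 were lower at an unadjusted p under 0.05. Those were the integrin subunit Itgb6 (p 0.000793) and the binding protein Ltbp1 (p 0.00199), by the authors' DESeq2. Both were almost absent from knockout cells, with normalized counts of 0 and 0.759 for Itgb6 and 0.967 and 1.52 for Ltbp1. Neither passed the adjusted threshold, with an adjusted p of 0.310 for Itgb6 and 0.542 for Ltbp1 in the authors' deposited table (DESeq2). The kidney and mesenchymal markers given above also stood lower in the knockout libraries than in the implied wild-type mean, and their part in these values was not tested. Tgfb2, at 58.0 and 93.4, had a log2 fold change of -1.01 (SE 0.67) in the authors' deposited table.

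For Sipa1, the 14 genes of the RAP1 cycle had a median of -0.031 in the authors' deposited table, and Rap1b, at 9636 and 11034 normalized counts, was the 1 lower at an unadjusted p under 0.05 (-0.34, SE 0.12, p 0.00455, DESeq2). Rap1a stood at -0.20 (SE 0.15) and the related regulator Sipa1l1 at 0.21 (SE 0.15) in the authors' deposited table. For Ehbp1l1, 8 partners had a median of 0.0025, and the traffic GTPase Rab10, at 3307 and 3250, was the 1 lower at an unadjusted p under 0.05 (-0.31, SE 0.13, p 0.0187, the authors' DESeq2 in the authors' deposited table). The share of all genes lower at that threshold was 1.72%.

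The remaining lists had 0 genes at an unadjusted p under 0.05 by the authors' DESeq2, against 2.11% of all genes. The median log2 fold change in the authors' deposited table was -0.029 for 16 genes of the TIP60 complex and -0.099 for 18 of the BAF complex, with Arid1a, its DNA-binding subunit, at -0.22 (SE 0.14). It was -0.011 for 14 genes of the MLK and JNK pathway, with the scaffold Mapk8ip3 at 0.19 (SE 0.12), and -0.025 for 44 mitochondrial carriers, with the dicarboxylate carrier Slc25a10 at -0.68 (SE 0.40). For Capn1, 7 genes of the calpain system had a median of 0.077 in the authors' deposited table, with the small subunit Capns1 at 0.077 (SE 0.11) and the inhibitor Cast at 0.069 (SE 0.11). The median over all 16385 genes was -0.031.

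**Figure D4:**
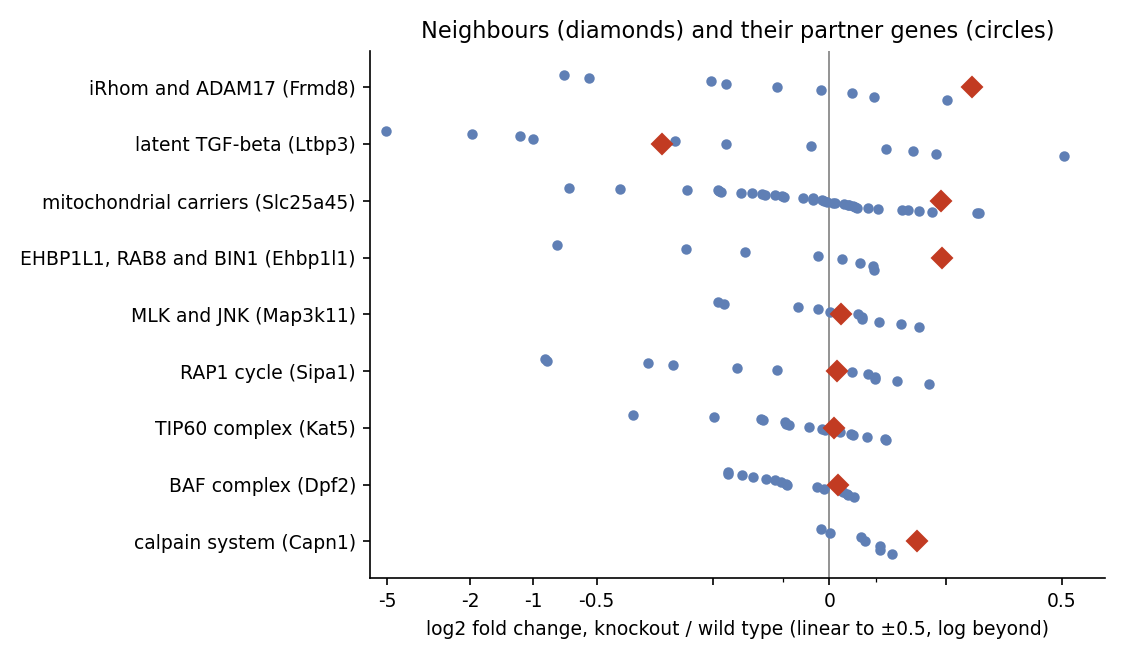
Log2 fold change (authors' DESeq2; axis linear to 0.5 either way and logarithmic beyond) of each neighbour (diamonds) and of its partner genes with a mean of 50 or more (circles), 1 row per list. The diamonds of Frmd8, Ehbp1l1 and Capn1 lie to the right of all their partners, and 0 genes shown passed an adjusted p of 0.05.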

How the data were processed

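The authors deposited 1 table of raw counts, normalized counts and DESeq2 results, made with STAR 2.6.1a, featureCounts, DESeq2 1.18.1 and build mm10, per the submitters' processing notes. Its counts are whole reads per gene, deposited by the authors. Its normalized counts, a signal, were made by the authors by dividing counts by a size factor, and their mean covers 4 libraries. The authors also deposited log2 fold changes, SEs, Wald statistics (a score) and p-values. Not given in the sources used here are the annotation, strand setting and model factors, although the authors' own label for the results is multifactor. Ratios to the implied wild-type mean take no such factor into account. The 4 per-sample columns that match no sample here were not used, so no new test between genotypes was run, and p-values are those of the authors' DESeq2 fit.

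The 9 genes, their partner lists and the markers were chosen with earlier results of these data known. Named were the 9, Tigd3, Cdc42ep2, Pola2 and Rela, other listed neighbours at an unadjusted p under 0.05 (0 found), and up to 3 genes per partner list with the smallest p. No gene was named for likeness of pattern, since 2 libraries of 1 group give none. Overlapping genes were looked up for their overlap, and some items that the rule names are not reported here. Gene IDs matched GENCODE M21 for 16371 of 16385 genes, 15943 with the same version, and 16345 are protein-coding there. The implied wild-type mean is 4 times the authors' mean minus both knockout values, divided by 2. Intervals are the log2 fold change ± 1.96 SE. GC content is that of the longest transcript, with a lowess trend (fraction 0.3, genes with a mean of 50 or more). The fit was tested on simulated data with a straight trend only, so a curved one was not tested. In the deposited fold changes the trend curves, with a median of 0.049 from 55% to 60% GC and 0.0054 above 60%. Alternatives recomputed adjusted p-values and fold changes in Python 3.11.15 with statsmodels 0.14.6. SDs over 2 libraries are imprecise.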

Additional observations from a re-analysis of the deposited data

How the results depend on the processing

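The count of neighbours called stayed 0 without a filter on the mean, at a mean of 50 or more, after centring and after GC trend subtraction, as did the count at an unadjusted p under 0.05 in the last 2 of these. The count within 500 kb stayed 0 under those 4 settings and in windows of 100, 250 and 1000 kb. The first 2 settings could not add a call, since an adjusted p is never below its unadjusted p. The smallest unadjusted p of the 9 was 0.0570 (Frmd8, DESeq2 Wald test). With 0 genes under 0.05 within 500 kb, these 2 settings and the windows of 100 and 250 kb were likewise fixed at 0. The median log2 fold change of the 9 was -0.0027 with the GC trend subtracted. Values with 1 knockout library left out are log2 ratios of the other library to the implied wild-type mean (pseudocount 1), not DESeq2 fold changes. Their median was 0.062 to 0.097, against 0.026 for the same ratio with both libraries. Subtracting the GC trend turned the direction of Map3k11 (-0.0027), Dpf2 (-0.014), Sipa1 (-0.014) and Kat5 (-0.041), each far inside its interval. As a ratio to the implied wild-type mean, leaving out 1 knockout library also turned Map3k11 (-0.010 without replicate 2). It likewise turned Sipa1 (-0.067 without replicate 1) and Kat5 (-0.0033 without replicate 1). Without replicate 1, this ratio was -0.86 for Ltbp3, against -0.49 with both libraries, and 0.21 for Slc25a45, against 0.23. With the GC trend subtracted, a check of the partner lists chosen after seeing the data, the iRhom and ADAM17 list had 1 gene at an unadjusted p under 0.05 in place of 3, and the other 8 lists kept their counts. No paired analysis was possible because the samples form 1 group. Of the 9, Ltbp3 and Slc25a45 had the fewest counts and the largest SEs.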

Other observations

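Chromosome 19 as a whole had 576 measured genes, of which 1 passed an adjusted p of 0.05 in the authors' deposited table (DESeq2). That gene, Acy3, which encodes an aminoacylase, lies 1806 kb from Malat1, had 2 and 15 counts in the knockout libraries and a log2 fold change of -5.56 (SE 1.07, adjusted p 0.000648) in the authors' deposited table. At an unadjusted p under 0.05, 4 genes of the chromosome were higher and 12 lower, 2.78% in all against 2.11% of all genes (the authors' DESeq2).

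Within 1000 kb of the stretch from Kat5 to Capn1, 1 of 114 genes had an unadjusted p under 0.05, against 2.11% of all genes. Fermt3 was that gene (the authors' DESeq2). It encodes kindlin-3, which activates integrins in blood cells, and was picked out after its value was seen. It lies 1196 kb from Malat1 and stood at normalized counts of 10743 and 9454, both above the implied wild-type mean of 8759. Its log2 fold change in the authors' deposited table was 0.20 (SE 0.093, unadjusted p 0.0283, adjusted p 1.00, DESeq2), and 0.15 with the GC trend subtracted (unadjusted p 0.108).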
